A study of Mus musculus with 5 samples.

Results

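The centrosome and augmin genes described here are 60 of the 12588 genes (symbols or, where none is given, identifiers) listed in an RNA-Seq table of cultured mouse neural stem/progenitor cells (NSPCs). They were chosen by name alone, as the listed symbols that begin with *Cep*, *Haus* or *Tubgcp* followed by a digit, together with *Pcnt*, *Cdk5rap2*, *Nin*, *Ninl*, *Pcm1*, *Tubg1*, *Tubg2*, *Akap9*, *Nedd1*, *Plk4*, *Sass6* and *Cntrob*. They have 109 of the 22227 listed transcripts, and 29 of the 60 genes have 1 listed transcript. Of the 60 gene sums, 57 had a mean of at least 50 normalized counts.

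The series compared NSPCs labelled as deficient for the p75 neurotrophin receptor with NSPCs of littermates. There were 2 libraries labelled WT (*p75NTR+/+*, replicates 1 and 4) and 3 libraries labelled *p75NTR-/-* (replicates 1, 2 and 4), a label that stands for mice deficient for the receptor. All 5 libraries came from C57BL/6J cells kept in proliferation medium that held FGF-2 at 20 ng/ml and EGF at the same concentration, without further treatment, and all were strand-specific mRNA libraries made from 500 ng RNA. The labels give the cells as embryonic, from E12.5, and the study's methods give them as adult, which the table does not settle.

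The centrosome is the main microtubule-organizing centre of an animal cell. It is a pair of centrioles inside a pericentriolar matrix, on which γ-tubulin ring complexes start new microtubules. The centrioles are copied once in each cell cycle, and in a resting cell the older centriole can serve as the base of a primary cilium. Augmin is a complex of HAUS subunits that binds to existing spindle microtubules and brings γ-tubulin there, so that microtubules branch inside the spindle. In neural progenitors both are known for their part in spindle assembly, and mutations in several of these genes cause microcephaly.

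The 5 libraries held between 11688211 and 14452396 recovered counts, so a count of 0 allows up to 2.94 to 3.60 normalized counts. *Ngfr*, the gene of the p75 neurotrophin receptor, went against the labels: it had 0.98 and 2.08 normalized counts under the WT label and 9.89, 141 and 251 under the *p75NTR-/-* label. Groups are therefore called by their labels throughout. On the first principal component of the gene sums (51.7% of the variance of 10786 genes), both libraries numbered 4 stood apart from the other 3. On the second (36.5%), the library labelled WT replicate 1 stood apart. All 8 neural progenitor markers were listed, with summed levels of 85911 to 117218 normalized counts, whereas 0 of 4 microglia markers were among the genes analysed here. The progenitor markers differed in direction between the labels, from a log2 difference of -0.81 for *Hes5* to 0.73 for *Nes*. Their median was -0.15 between the labels, -0.43 within number 1 and 0.11 within number 4. Of the other cell types, 3 of 5 neuron, 2 of 4 oligodendrocyte lineage, 1 of 3 endothelium, 1 of 4 mesenchyme and 2 of 5 multiciliated cell markers were listed. All 4 astrocyte markers were listed, with 23895 to 25151 normalized counts in sum under the WT label and 16999.8 to 27271 under the other, most of it from *Aldh1l1*. *Gfap* had 241 and 680 normalized counts against 11.9, 1.20 and 746, and *Aqp4* 395 and 696 against 69.3, 114 and 566. *S100b* differed from these by library, with 1421 and 347 against 475, 369 and 410. *Aldh1l1* had 23093 and 22171 against 16444, 19687 and 25549. The median log2 difference of the 4 astrocyte markers was -1.21 between the labels, -2.04 within number 1 and 0.17 within number 4, and its part in the levels of the centrosome genes was not tested.

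Several of these genes are represented by transcripts that share most of their bases. Coding stretches present in 1 of 2 transcripts are shown for 5 genes that serve as examples in the results on transcripts, chosen after their values were seen. The transcripts of each pair also differ at their ends, by up to 558 bases in exon 1 of *Haus8*, and those parts are not shown. They were read from the mouse genome GRCm38 with the GENCODE M21 annotation, 5′ to 3′ on the strand of the gene. Capitals mark the stretch found in only 1 of the transcripts compared, and lower-case letters its flanks of 20 bases in the spliced transcript.
Haus8, 3 bases at chr8:71256552-71256554, minus strand, in exon 5 of ENSMUST00000035960 and not in ENSMUST00000110071: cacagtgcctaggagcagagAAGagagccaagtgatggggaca
Cep170, 30 bases at chr1:176742471-176742500, minus strand, in exon 14 of ENSMUST00000194727 and not in ENSMUST00000195717: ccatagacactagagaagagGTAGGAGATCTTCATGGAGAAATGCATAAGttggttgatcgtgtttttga
Pcm1, the whole of exon 6, 117 bases at chr8:41261360-41261476, plus strand, in ENSMUST00000211247 and not in ENSMUST00000045218: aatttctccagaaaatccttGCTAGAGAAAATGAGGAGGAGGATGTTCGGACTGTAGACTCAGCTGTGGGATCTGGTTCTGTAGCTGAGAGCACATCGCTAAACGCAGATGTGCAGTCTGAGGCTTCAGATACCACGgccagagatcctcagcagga
Cep57, the whole of exon 8, 78 bases at chr9:13812633-13812710, minus strand, in ENSMUST00000034398 and not in ENSMUST00000147115: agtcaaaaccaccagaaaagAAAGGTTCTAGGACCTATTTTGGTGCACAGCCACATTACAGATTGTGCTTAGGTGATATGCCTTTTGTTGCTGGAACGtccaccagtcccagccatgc
Pcnt, 54 bases at chr10:76380163-76380216, minus strand, in exon 31 of ENSMUST00000001179 and not in ENSMUST00000217838: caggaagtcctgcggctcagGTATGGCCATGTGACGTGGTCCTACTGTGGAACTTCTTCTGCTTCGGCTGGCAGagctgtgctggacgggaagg

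Per length, the centrosome genes spanned a wide range of levels. The authors' TPM, a level that divides counts by transcript length, summed per gene and averaged over the 5 libraries, had a median of 7.29 over the 60 genes, with 9 genes above 20 and 8 below 2. *Cep170*, a protein of the older centriole's appendages, was highest with a mean of 53.4 TPM (40.6 to 61.0 across libraries), followed by *Tubg1*, γ-tubulin itself, with 51.9 TPM (38.4 to 61.4). These did not differ beyond their spread. The *Cep170* sum adds 5 listed transcripts, among them ENSMUST00000194263 (440 exonic bases) and ENSMUST00000192991 (1571 exonic bases). A count on a short transcript adds more TPM, and the part of these transcripts in the rank of *Cep170* was not tested. *Nedd1*, the adaptor that carries the γ-tubulin ring complex to centrosomes and augmin, followed with 27.1 TPM (18.7 to 31.9), below every library of *Tubg1*. Its sum also adds a short transcript, ENSMUST00000216086 (391 exonic bases), which had only 4.91 to 10.88 normalized counts. The part of that transcript in the rank of *Nedd1* was not tested. The lowest were *Cep112* (0.61 TPM), *Cep126* (0.44 TPM) and *Tubg2*, the second γ-tubulin gene (0.35 TPM, 0.13 to 0.60). In the order of means, the libraries of 56 of the 59 neighbouring pairs overlapped. Within augmin, whose subunits form one complex, mean levels ran from 5.66 TPM for *Haus6* (3.79 to 7.28) to 26.2 TPM for *Haus2* (24.8 to 28.0). The deposited TPM does not follow the annotated lengths here. *Haus2* had a mean of 330 normalized counts on transcripts of 3055 and 3154 exonic bases. *Haus1* had 373 on 1003 exonic bases, with 22.6 TPM. Outside augmin, *Cep19* had 174 normalized counts on 1 listed transcript of 1718 exonic bases, with 21.9 TPM. *Tubg1* had 1437 on 1802 exonic bases, with 51.9 TPM. The cause was not tested, so the order by TPM is uncertain, both within augmin and across the 60 genes.

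**Figure D1:**
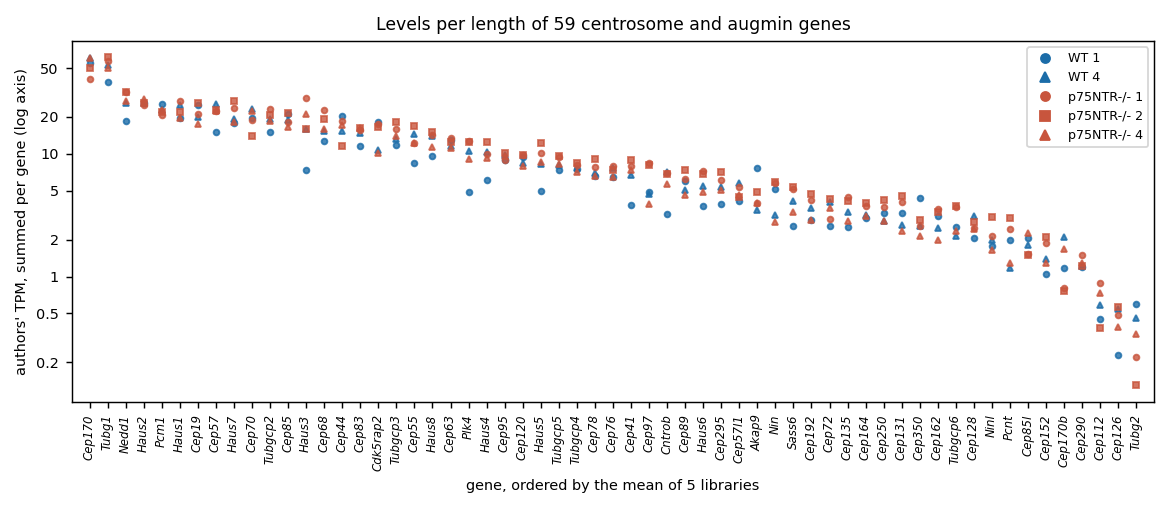
The authors' TPM, summed per gene, of 59 of the centrosome and augmin genes on a log axis, with genes ordered by the mean of 5 libraries. Each point is 1 library (blue, labelled WT; red, labelled p75NTR-/-; circle, square and triangle for replicates 1, 2 and 4). Cep170 and Tubg1 share the top of the order and Tubg2 is lowest, at 0.13 to 0.60 TPM, and most neighbours in the order overlap.

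The series was designed to compare NSPCs by receptor genotype, and since *Ngfr* went against the labels, the values below compare the labels only. The gene sums were higher under the *p75NTR-/-* label for 46 of the 60 genes and lower for 14, and the median difference was 0.16 on the log2 scale. Over all 12588 genes, 6379 (50.7%) were higher and the median was 0.0039. None of the 60 passed the criteria of the study's methods in limma (mean of at least 50, change of at least 1.5-fold, adjusted p under 0.05), and the lowest adjusted p was 0.934. The unadjusted p in limma was under 0.05 for 1 of the 60, and edgeR and DESeq2 on the recovered counts called 0. Of all 12588 gene sums, limma called 1 (0.00794%), edgeR called 0 and DESeq2 called 7 (0.0556%), and the unadjusted limma p was under 0.05 for 262 (2.08%). All differences below are therefore given as values that did not pass the test. The study describes its replicas as independent NSPC preparations, and states a higher number of them than either label has libraries here. An exact permutation test of 2 against 3 libraries cannot go below p = 0.1.

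The groups did not overlap for 6 genes that were higher under the *p75NTR-/-* label (*Haus5*, *Cep41*, *Cep68*, *Tubgcp3*, *Cep83* and *Tubgcp5*) and for *Tubg2* and *Cep70*, which were lower. Over all genes 7.52% were higher without overlap and 7.53% lower, so 6 and 2 of 60 are near the background.

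The direction differed between the replicate numbers that both labels share. Between the 2 libraries numbered 1, 46 of the 60 genes were higher under the *p75NTR-/-* label, with a median log2 difference of 0.28. Between the 2 libraries numbered 4, 17 were higher and 43 lower, with a median of -0.096. Of all listed genes 51.1% were higher within number 1 and 49.3% within number 4, with medians of 0.011 and -0.0019. For 35 of the 60 genes (58.3%) the sign was positive within number 1 and negative within number 4, as against 28.0% of all listed genes. Each of these is a difference of 1 library against 1 and has no replicate check.

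**Figure D2:**
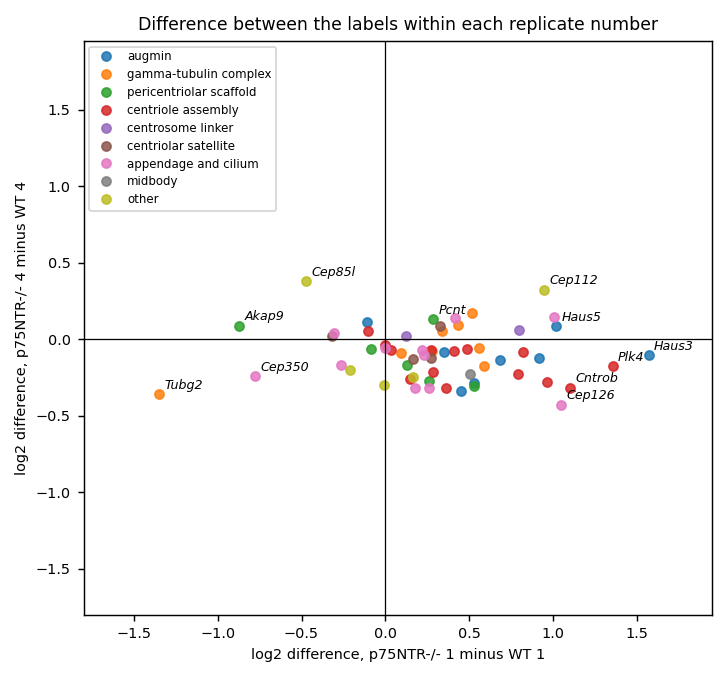
Log2 difference of the gene sum between the labels for 59 of the genes, within replicate number 1 (horizontal axis) and within replicate number 4 (vertical axis), coloured by role. The points stretch along the horizontal axis, up to 1.57 for Haus3, while on the vertical axis all lie between about -0.43 and 0.38, most of them below 0.

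The library labelled WT replicate 1 held the lowest value of 32 of the 60 genes (53.3%), as against 31.2% of all listed genes, and the library labelled *p75NTR-/-* replicate 2 held the highest value of 27. Without the library labelled WT replicate 1, the median log2 difference of the 60 genes was 0.09 and 38 were higher. Without the library labelled WT replicate 4, it was 0.27. Among the 57 genes of mean 50 or more, the 2 libraries numbered 4 differed by a median of 0.13 (absolute log2 difference), and the libraries labelled *p75NTR-/-* replicates 1 and 2 by 0.12. The 2 libraries labelled WT differed by 0.34, more than either of these pairs.

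**Figure D3:**
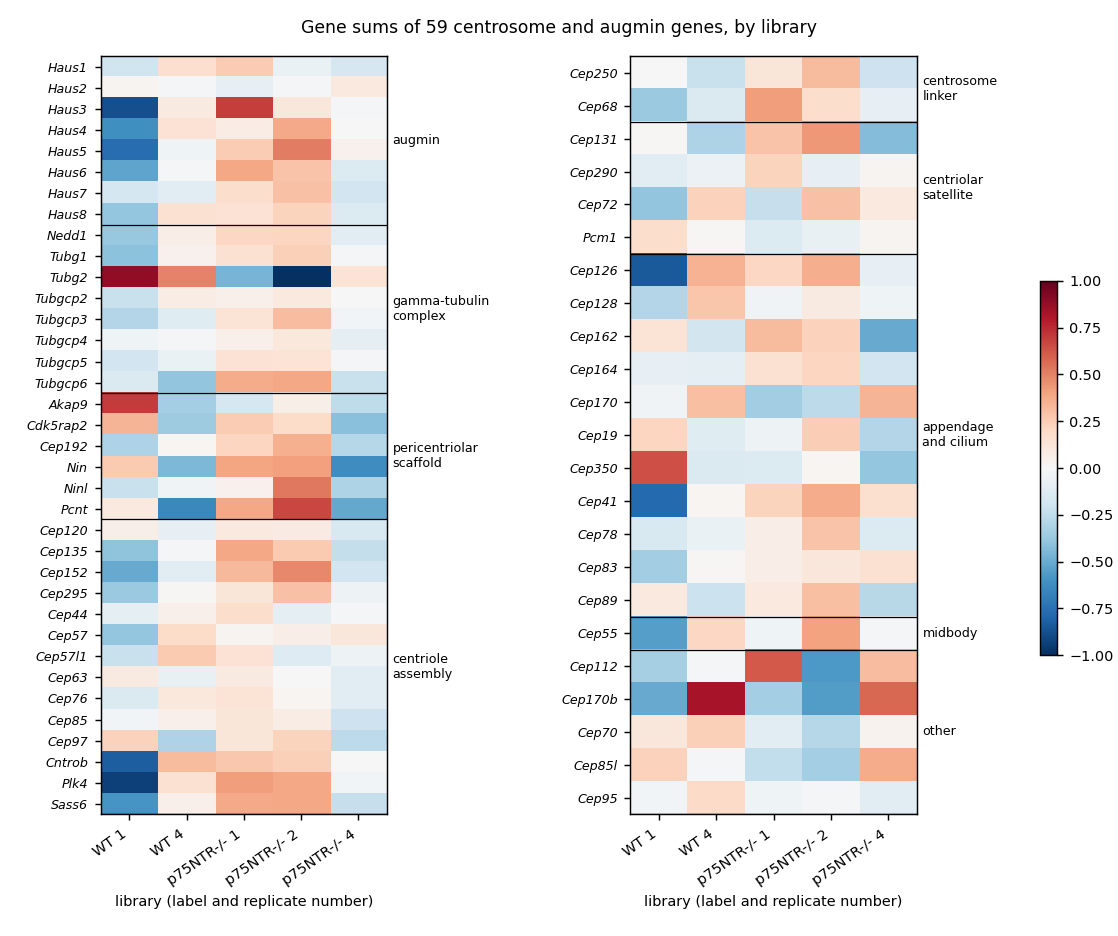
Gene sums of 59 of the genes in the 5 libraries, as log2(normalized count + 1) less the mean of the 5 libraries (red above, blue below, colours end at 1), grouped by role. WT replicate 1 is blue for most augmin, γ-tubulin complex and centriole assembly genes, and both libraries numbered 4 are blue for most scaffold genes.

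The 14 markers of cycling cells followed the same libraries. Their summed level was 24152 and 31237 normalized counts under the WT label and 39473, 41868 and 29898 under the *p75NTR-/-* label, and no marker was at 0 in any library. All 14 were higher under the *p75NTR-/-* label (median log2 difference 0.46, 0 called in limma, lowest adjusted p 0.934), with a median of 0.78 within number 1 and -0.091 within number 4. The marker list was lowest in the library labelled WT replicate 1 for 10 of 14 genes. Its part in the levels of the centrosome genes was not tested. In such bulk libraries fewer cells of a type and less RNA per cell cannot be told apart.

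Of the 8 augmin subunits, 7 were higher under the *p75NTR-/-* label and 0 were called, with a median log2 difference of 0.31. The median was 0.61 within number 1, -0.12 within number 4 and 0.09 without the library labelled WT replicate 1, which held the lowest value of 6 subunits. *Haus5* (chr7:30653716-30664994, minus strand, 19 exons) had 195 and 322 normalized counts under the WT label and 397, 476 and 342 under the *p75NTR-/-* label. It was the largest difference of the 57 genes with a mean of 50 or more (log2 0.67 ± 0.29 SE, unadjusted p = 0.066, adjusted p = 0.934 in limma). Without the library labelled WT replicate 1 its difference was 0.31 and no longer the largest (*Cep170b*, -0.93, and *Pcnt*, 0.82). Its groups did not overlap, and the libraries closest to each other across the labels were those numbered 4. Of its 2187 exonic bases, 1790 lie on the same strand in the annotated gene *Gm21982*, so most of its reads cannot be told from reads of that gene.

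*Haus3* (chr5:34153880-34169527, minus strand) had 278 and 545 normalized counts under the WT label and 826, 554 and 506 under the other (log2 0.66 ± 0.38 SE), a difference of 0.17 without WT replicate 1 and 1.14 without WT replicate 4. Its highest and its lowest library were both numbered 1, and 108 of its exonic bases overlap *Poln* on the same strand. *Poln*, a DNA polymerase gene, had 29.4 and 42.7 against 70.3, 43.3 and 56.0 normalized counts, again highest and lowest in the libraries numbered 1. *Haus6* (chr4:86578855-86612055), the subunit that binds the γ-tubulin ring complex through NEDD1, had 247 and 355 against 468, 435 and 325 normalized counts, and its groups overlapped. Its log2 difference of 0.45 was 0.19 without the library labelled WT replicate 1.

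*Haus4* had 132 and 225 normalized counts against 214, 264 and 204, and *Haus7*, on chromosome X, 381 and 399 against 486, 527 and 376. *Haus8*, which holds the part of the complex that binds microtubules, had 217 and 316 against 314, 332 and 259. The log2 differences of these 3 subunits were 0.39, 0.23 and 0.19, or 0.0072, 0.20 and -0.077 without WT replicate 1, and in each the groups overlapped. *Haus1* had 323 and 417 against 442, 354 and 330 normalized counts (log2 0.02 ± 0.22 SE). *Haus2* had 336 and 326 against 311, 326 and 352 (log2 -0.0072 ± 0.16 SE), which is the narrowest spread of the 8 subunits.

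**Figure D4:**
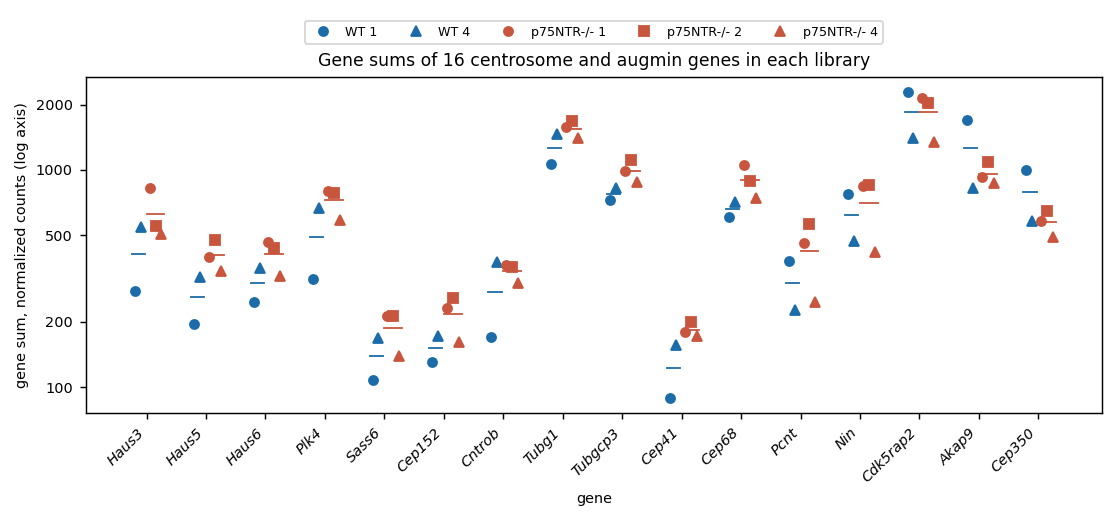
Gene sums in normalized counts (log axis) of 16 centrosome and augmin genes in each library, with 1 point per library and a short line at the mean of each label (blue, WT; red, p75NTR-/-; circle, square and triangle for replicates 1, 2 and 4). From Haus3 to Cep41 the library labelled WT replicate 1 is lowest in each of the 10 genes, whereas in Pcnt, Nin and Cdk5rap2 both triangles lie below the other 3 points.

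The γ-tubulin ring complex was listed with 8 genes, of which 7 were higher under the *p75NTR-/-* label and 0 were called (median log2 difference 0.24, 0.38 within number 1, -0.068 within number 4 and 0.06 without the library labelled WT replicate 1). *Tubg1* (chr11:101119938-101126419, plus strand) had 1070 and 1462 normalized counts under the WT label and 1575, 1677 and 1402 under the other, and the groups overlapped. *Tubg2*, in the same direction on the same chromosome (chr11:101155907-101161787), was the only member with an unadjusted p under 0.05. It had 16.7 and 12.48 normalized counts under the WT label and 5.94, 3.60 and 9.51 under the other (log2 -1.15 ± 0.39 SE, unadjusted p = 0.031, adjusted p = 0.934 in limma). Its lowest value equals the limit that a count of 0 allows in that library. Of the 31-base words in the *Tubg2* transcript, 23.6% also occur in *Tubg1*, whose level is far higher, so the split of reads between them is uncertain.

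Of the proteins that hold γ-tubulin in the ring, 2 did not overlap between the labels. *Tubgcp3* (chr8:12614277-12672248), a subunit of the small γ-tubulin complex, had 729 and 822 normalized counts against 984, 1105 and 877 (log2 0.35 ± 0.18 SE, unadjusted p = 0.117, adjusted p = 0.934 in limma). *Tubgcp5*, a subunit of the full ring, had 535 and 583 against 675, 674 and 604. In both the replicate-4 libraries were closer to each other than the libraries numbered 1.

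*Tubgcp6* had 314 and 264 normalized counts against 449, 454 and 297, and *Nedd1* 521 and 713 against 783, 787 and 631. Both overlapped between the groups, and 242 bases of the main *Nedd1* transcript lie in *Gm49783* on the same strand. *Tubgcp2*, the partner of *Tubgcp3* in the small complex, had 803 and 987 against 972, 1001 and 937. *Tubgcp4* had 341 and 348 against 363, 378 and 327, a log2 difference of 0.05 ± 0.16 (SE).

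Of the 6 scaffold genes of the pericentriolar matrix, 5 were higher under the *p75NTR-/-* label and 0 were called, with a median log2 difference of 0.18 that turned to -0.061 without the library labelled WT replicate 4 and was 0.29 without the library labelled WT replicate 1. All 6 had a lower mean in the 2 libraries numbered 4 than in the other 3, with a median log2 difference of -0.57, as against 0.013 over all listed genes. The number-4 difference is given without a test, since the labels give no batch, day or animal for a replicate number.

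*Pcnt*, pericentrin, the large scaffold that anchors the γ-tubulin ring complex, had 379 normalized counts in WT replicate 1 and 226 in WT replicate 4, against 461, 562 and 247. *Nin*, ninein, which anchors microtubules at the older centriole, had 773 and 471 against 847, 857 and 419. *Cdk5rap2*, which activates the γ-tubulin ring complex, had 2278 and 1402 against 2146, 2036 and 1343. In all 3 genes both libraries numbered 4 lay below every other library, by log2 differences of -0.96, -0.89 and -0.65 between the means. These 3 genes were also among those chosen for the largest differences by replicate number, so their separation follows in part from that choice. The first principal component of the gene sums (51.7% of the variance) set both libraries numbered 4 apart as well. For these genes and those below, the share of all listed genes separated in this way is not given, so the separations have no background.

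*Akap9*, a scaffold of the centrosome and Golgi, had 1696 and 823 normalized counts against 927, 1084 and 874, and its highest value was in the library labelled WT replicate 1. *Cep192*, which recruits the mitotic kinases that ripen the centrosome, had 528 and 666 against 763, 840 and 539. *Ninl*, a paralog of ninein, had 168 and 190 against 201, 282 and 157. All 3 overlapped between the labels, with log2 differences of -0.30, 0.24 and 0.21, or 0.22, 0.08 and 0.12 without the library labelled WT replicate 1.

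The 14 genes of centriole assembly were mostly higher under the *p75NTR-/-* label (11 of 14, 0 called, median log2 difference 0.12). The median was 0.39 within number 1, where 12 were higher, and -0.13 within number 4, where 13 were lower. The library labelled WT replicate 1 was lowest for 10 of the 14. *Plk4* (chr3:40800019-40816883, plus strand), the kinase that starts centriole duplication, had 313 and 666 normalized counts under the WT label and 802, 783 and 590 under the *p75NTR-/-* label (log2 0.65 ± 0.37 SE, unadjusted p = 0.141, adjusted p = 0.934 in limma). Without the library labelled WT replicate 1 the difference was 0.11. *Sass6*, the protein of the cartwheel at the root of a new centriole, had 108 and 169 against 212, 213 and 138. *Cep152*, which brings *Plk4* to the parent centriole, had 131 and 172 against 232, 258 and 162. In each of these 3 genes the library labelled WT replicate 4 lay above the one labelled *p75NTR-/-* replicate 4.

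*Cntrob*, centrobin, a protein of the daughter centriole, had 170 and 377 normalized counts against 365, 357 and 302. Its low value in WT replicate 1 made up the log2 difference of 0.43, which was -0.15 without that library. *Cep135* and *Cep295*, which lengthen and stabilize the new centriole, had 204 and 268 against 353, 323 and 229 and 594 and 772 against 833, 939 and 740. *Cep63*, the partner of *Cep152*, had 514 and 459 against 514, 485 and 447, and *Cep120* had 651 and 589 against 666, 662 and 560, so both stayed within a narrow range in all 5 libraries.

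*Cep57* had 502 and 748 normalized counts against 669, 691 and 710, and its paralog *Cep57l1* 109 and 153 against 141, 117 and 123. *Cep97*, which caps the centriole end, had 223 and 153 against 207, 222 and 158. *Cep44*, *Cep76* and *Cep85* had log2 differences of 0.04, 0.04 and -0.016. All 6 genes overlapped between the labels.

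The remaining genes serve the linker between centrosomes, the satellites around them, the appendages and cilium, and the midbody. *Cep68*, a linker protein that holds the centrosomes of a cell together, had 608 and 715 normalized counts against 1057, 893 and 744 (log2 0.43 ± 0.22 SE). *Cep41*, known for the modification of ciliary tubulin, had 89.3 and 156 against 180, 199 and 172 (log2 0.63 ± 0.28 SE, unadjusted p = 0.073, adjusted p = 0.934 in limma), a difference of 0.23 without WT replicate 1 and 1.03 without WT replicate 4. *Cep83*, of the distal appendages that attach a centriole to the cell membrane, had 548 and 702 against 731, 754 and 773. The groups of all 3 did not overlap.

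*Cep70* was lower under the *p75NTR-/-* label without overlap, with 209 and 229 normalized counts against 180, 159 and 199. *Cep350*, a large protein that binds microtubules at the centrosome, had 999 and 579 against 583, 648 and 490, and its highest value was again in the library labelled WT replicate 1. *Cep55*, which organizes the final cut between daughter cells at the midbody, had 259 and 439 against 368, 503 and 375. Across the 12 appendage and cilium genes the median log2 difference was 0.11, with 9 higher, 3 lower and 0 called. The 4 satellite genes had a median of 0.14, and *Pcm1*, the satellite scaffold, had 3796 and 3382 against 3047, 3188 and 3425.

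Other genes of the cilium, the satellites and the linker did not set the labels apart, and the groups overlapped in each. *Cep164*, the distal appendage protein that prepares a centriole for a cilium, had 302 and 300 normalized counts under the WT label and 354, 371 and 279 under the other. *Cep290*, of the ciliary transition zone, had 206 and 212 against 258, 209 and 225. *Cep250*, the linker protein C-Nap1, had 537 and 460 against 586, 669 and 466. Both libraries numbered 4 were the lowest of the 5 for *Cep164* and *Cep250*, as they were for *Cep89*, a distal appendage protein (319 and 256 against 319, 366 and 246).

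*Cep162*, which binds microtubules at the base of the cilium, had 312 and 250 normalized counts against 353, 332 and 200, again with both libraries numbered 4 at the bottom. *Cep19* had 200 and 158 against 166, 204 and 141, and *Cep78* had 341 and 362 against 397, 461 and 344. *Cep128*, of the subdistal appendages, had 161 and 240 against 193, 210 and 192, and *Cep126* 17.7 and 41.6 against 37.6, 42.1 and 30.6. In *Cep128* and *Cep126* the library labelled WT replicate 1 was lowest.

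*Cep170*, the gene with the highest summed TPM, had 2877 and 3634 normalized counts against 2322, 2463 and 3732. Both libraries numbered 4 thus lay above the other 3. *Cep72*, a satellite protein, had 113 and 175 against 127, 183 and 160. *Cep95* and *Cep85l* had 333 and 389 against 330, 335 and 316 and 113 and 95.7 against 81.1, 75.7 and 125. The log2 differences of these 4 genes lay between -0.22 and 0.14.

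Replicate number also separated *Cep170b*, a paralog of *Cep170*, which had 152 and 128 normalized counts in the libraries numbered 4 and 59.9, 67.3 and 57.7 in the other 3. *Cep131*, a satellite protein, had 150 and 137 in the libraries numbered 4 and 187, 227 and 251 in the other 3. Of the 60 genes, these 2 and *Pcnt*, *Nin* and *Cdk5rap2* differed most between the number-4 libraries and the rest, in both directions. They were chosen for that difference, and their separation was not compared with that of all listed genes.

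A list of 43 other known centrosome genes, which the name rule does not cover, was set beside them, and 2 of its genes, *Plk1* and *Aurka*, are also among the markers of cycling cells. Of the 43, 33 were higher under the *p75NTR-/-* label, 10 lower and 0 called, with a median log2 difference of 0.16, a median of 0.29 within number 1 and -0.036 within number 4. The groups did not overlap for 6 of them, all higher under that label, where 7.52% of all genes were higher without overlap. *Plk1*, the mitotic kinase that ripens centrosomes, had 909 and 1029 normalized counts against 1605, 1791 and 1033. *Cetn2*, centrin, had 897 and 1110 against 1344, 1259 and 1122, and *Poc1b*, a protein of the centriole wall, 210 and 348 against 492, 386 and 372. In *Plk1* and *Cetn2* the libraries numbered 4 were nearly level, while those numbered 1 stood apart.

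At the level of single transcripts, 74 of the 109 were higher under the *p75NTR-/-* label and 35 lower (median log2 difference 0.18, as against 0.0090 over all 22227). None passed all criteria in limma, edgeR or DESeq2, and for 3 the unadjusted limma p was under 0.05. Over all listed transcripts limma called 3 (0.0135%), edgeR 0 and DESeq2 28 (0.126%), and the unadjusted limma p was under 0.05 for 699 (3.14%). The groups did not overlap for 11 member transcripts that were higher and 4 that were lower, where 8.94% and 7.61% of all transcripts did so.

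The *Haus8* transcript without the 3 bases shown above, ENSMUST00000110071 (chr8:71251125-71272376), was the only member transcript past the criteria once the minimum mean was left out, as were 31 of all transcripts (0.139%). It had 23.6 and 28.1 normalized counts (24 and 27 counts) in WT replicates 1 and 4, as labelled, and 0 in all 3 labelled *p75NTR-/-*, at least 7.95-fold lower when computed against a limit of 3 counts per library. Its adjusted p was 0.0134 in limma, 0.194 in DESeq2 and 1.00 in edgeR, and leaving out 1 library gave 0.055 to 0.105 in limma. In limma it was also 0.548 with the replicate number as a block and 0.163 with a pseudocount of 8, so the call held in neither. The longer transcript, ENSMUST00000035960, had 193 and 288 against 314, 332 and 259 normalized counts, so the shorter one made up 10.9% and 8.88% of *Haus8* in the libraries labelled WT. Of its 31-base words, 98.1% occur in the longer transcript and no exonic base is its own, so its value rests on how Salmon divided shared reads.

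The share of a transcript in its gene sum was computed for 74 transcripts of 30 of these genes. For 25 of them (33.8%) both libraries numbered 4 lay on one side of the other 3, as for 30.3% of all 13584 transcripts with a share. For 10 (13.5%) the labels did not overlap, as for 17.6% of all. Both are near the background, and the genes below are given as examples, chosen after their values were seen.

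In *Cep170* ENSMUST00000194727, which has the 30-base stretch, held 60.4% and 65.7% of the gene sum in the libraries numbered 4 and 30.5%, 35.7% and 37.9% in the other 3. ENSMUST00000195717, which lacks that stretch, held 25.4% and 18.3% and, in the other 3 libraries, 51.9%, 48.2% and 45.7%. In *Pcm1* ENSMUST00000211247, which has exon 6, held 29.5% and 26.0% in the libraries numbered 4 and 49.4%, 51.3% and 47.7% in the other 3. In both genes the labels overlapped. All bases of ENSMUST00000194727 and ENSMUST00000211247 also occur in other annotated transcripts of their genes. Their shares are therefore not the shares of reads that hold the stretch.

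In *Cep57* ENSMUST00000034398, which has exon 8, held 33.0% and 54.3% in the libraries numbered 4 and 88.9%, 66.1% and 66.3% in the other 3. *Cep112* had 1 listed transcript above 0 per library, ENSMUST00000130515 in both libraries numbered 4 and ENSMUST00000150863 in the other 3, at gene sums of 26.4 to 61.4 normalized counts. The *Pcnt* transcript with the 54-base stretch, ENSMUST00000001179, had 92.3 normalized counts in the library labelled WT replicate 1 (24.4% of the gene) and 0 in the other 4. Between 95.4% and 99.1% of the 31-base words of the *Cep112*, *Cep170*, *Pcm1* and *Pcnt* transcripts occur in the other transcript of the pair, so these splits too depend on how shared reads were divided.

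**Figure D5:**
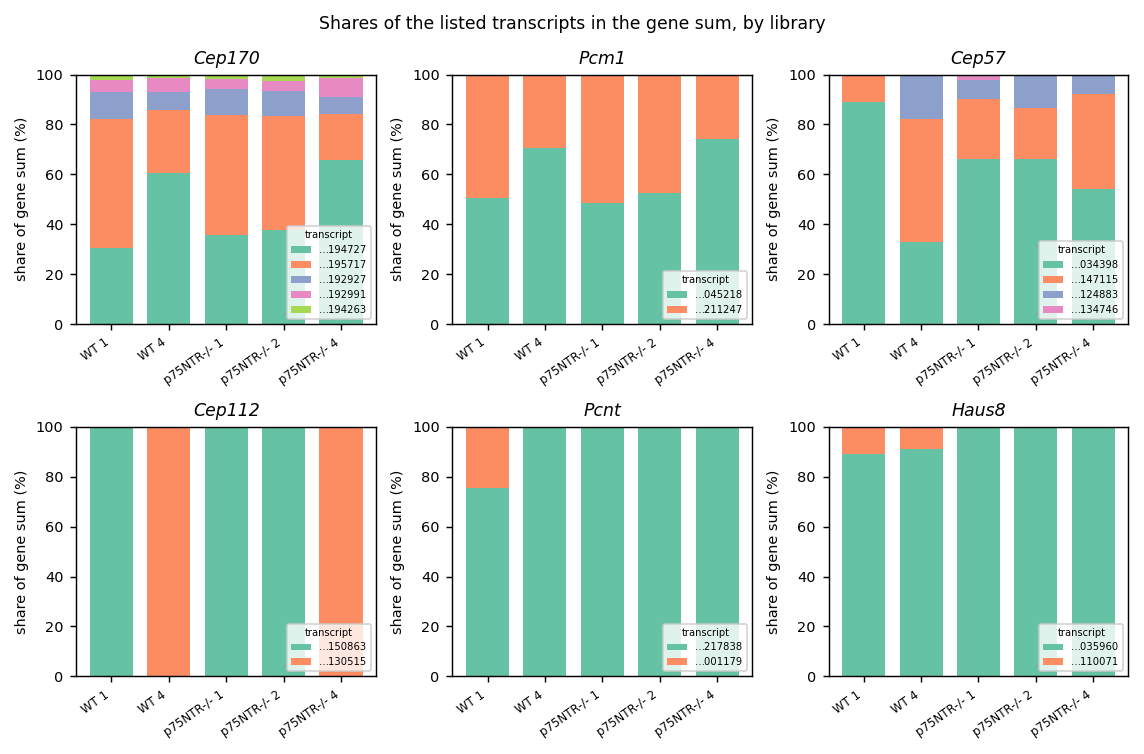
Share of each listed transcript (the last 6 digits of its identifier in the key) in the gene sum, in percent, by library, for 6 centrosome and augmin genes. Cep170, Pcm1 and Cep57 differ between the libraries numbered 4 and the other 3, Cep112 switches its transcript between them, the second Pcnt transcript appears only in WT replicate 1 and the second Haus8 transcript only in the libraries labelled WT.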

How the data were processed

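RNA-Seq of 5 libraries (2 labelled WT, 3 labelled *p75NTR-/-*) was analysed from 1 table of the whole series, with 0 per-sample columns left aside. The authors checked reads with FastQC, quantified them with Salmon 0.10.2 against the Ensembl transcriptome of mm10 (GRCm38.p6), and normalized and compared them with DESeq2 1.22.0 in R 3.6.1. Gene-level estimates are named in the methods, whereas the table has a line per transcript. For every library the deposited signal equals counts over a size factor with 0.5 added. The deposited TPM values are the authors' own and entered no test. The authors' baseMean, a score that averages normalized counts, was left aside. The deposited log2 fold changes and p-values (raw and adjusted) are the authors' own comparison and were not used.

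Of 22530 lines, 303 repeat a transcript and were dropped. After 0.5 was subtracted, 99.9% of a library's normalized counts were whole multiples of 1 step (tolerance 0.0051), which gave the counts. Limits set from counts cover counting error only. A gene sum adds the listed transcripts of a symbol. The design had assumed genes, so transcripts and gene sums were both fitted. limma 3.58.1 was run on log2(normalized count + 1) over all features with Benjamini-Hochberg adjustment and no covariate. All fold changes are on that scale, which understates low genes. A call needed a mean of at least 50, a change of 1.5-fold and an adjusted p under 0.05. Alternatives were edgeR 4.0.16 (quasi-likelihood) and DESeq2 1.42.0 on the recovered counts, TMM scaling, other pseudocounts and filters, a replicate block, and leaving out each library (R 4.3.3, Python 3.11.15, pandas 2.3.3, numpy 2.4.6). The fits were tested on simulated counts for the recovery of fold changes set in advance. The simulation held no differences between replicate numbers, so it does not show what can be detected in these libraries. Exons and coordinates came from GENCODE M21 (22199 of 22227 transcripts matched, all 109 of the members).

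The members and lists were chosen with earlier results of these data known. Named were the augmin, γ-tubulin, scaffold and centriole assembly genes, the 10 largest changes of mean 50 or more, the 5 lowest p, genes without overlap, the 5 that differ most by replicate number, and member transcripts past the criteria with or without the minimum mean. The *Haus8* and *Pcnt* transcripts that the study lists as lower in *p75NTR-/-* were also named. That listing comes from the same series. Other member genes and the genes outside the name rule were named after their values were seen. The values of 1 member gene are not reported here and not drawn, although it stays in the counts and medians.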

Additional observations from a re-analysis of the deposited data

How the results depend on the processing

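The number of member gene sums called was 0 under every alternative run, and the number of member transcripts called was 0 under every alternative but the one without a minimum mean, which gave 1. The median log2 difference of the member gene sums was positive in each, 0.09 to 0.27 with 1 library left out and 0.16 to 0.17 under the other tests, scalings, pseudocounts and filters. Of all transcripts, 3 were called in limma, 0 in edgeR, 28 in DESeq2, 0 with a pseudocount of 8, 31 without a minimum mean and 0 to 0 with 1 library left out. Of all gene sums, 1 was called in limma, 0 in edgeR, 7 in DESeq2 and 0 to 1 with 1 library left out. Fewer samples enter the fits that leave out a library. For the other settings the cause was not tested. Among the 60 member gene sums, 16 changed sign without the library labelled WT replicate 1, 9 without WT replicate 4 and 0 under TMM scaling, which moved the median of all genes from 0.00392 to -0.00261.

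Replicate numbers 1 and 4 are shared by both groups, but the labels tie no number to a common animal, culture or day and the study speaks of independent preparations. With 2 pairs the deviations of same-numbered libraries from the mean of their label correlated at 0.26 (number 1) and 0.48 (number 4) over 10786 genes. With 2 libraries labelled WT, their deviations are the same values with opposite sign. The 2 correlations are therefore not separate checks of a pairing. With a replicate block limma called 0 transcripts and 0 gene sums of all listed. The median log2 difference of the member gene sums was then 0.09, and 10 of 60 changed sign. Replicate number 2 has 1 library, so this label difference rests on the libraries numbered 1 and 4. Its median equals that of the fit without the library labelled *p75NTR-/-* replicate 2. Depth limits *Tubg2* and the shorter *Haus8* transcript, which had at most 16.7 and 28.1 normalized counts in any library.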
